A study of Rattus norvegicus with 238 samples.

Results

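The genes described here are 6 oncofetal RNA regulators: the insulin-like growth factor 2 mRNA-binding proteins Igf2bp1, Igf2bp2 and Igf2bp3, the let-7 antagonists Lin28a and Lin28b, and the chromatin protein gene Hmga2. They were chosen by name, and a symbol in the authors' comparison tables matched 5 of the 6 to an Ensembl identifier among the 32545 in each count table. These are Igf2bp1 (ENSRNOG00000006122, chromosome 10), Igf2bp2 (ENSRNOG00000025946, chromosome 11), Igf2bp3 (ENSRNOG00000009052, chromosome 4), Lin28b (ENSRNOG00000025938, chromosome 20) and Hmga2 (ENSRNOG00000042460, chromosome 7). Lin28a had no matching symbol and is named only. Bulk RNA sequencing was analysed in libraries of medial prefrontal cortex from male and female Sprague-Dawley rats at birth (P0), at 21 days (P21) and in adults at 90 days (79, 80 and 79 libraries). Library names read PFC at P0 but mPFC at P21 and in adults, while the P0 count table is named mPFC. A different dissection at P0 could not be told apart from age. Before birth the rats underwent fetal growth restriction (FR) or belonged to ad libitum fed controls (AdLib), handled here as levels of a diet factor. Every rat received a peripheral injection of insulin or saline 30 minutes before collection. These factors and sex make 24 groups of 10 libraries, except 9 for P0 male AdLib saline and 9 for adult male FR insulin. The strain is outbred, every group was injected, and the insulin dose and the way growth was restricted are not given in the sources used here.

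Igf2bp proteins bind target mRNAs in the cytoplasm and control their localization, stability and translation. They are abundant in embryonic tissue, are largely silenced after birth and reappear in tumours. Lin28 proteins bind precursors of the let-7 microRNAs and block their maturation. Mature let-7 in turn represses growth genes, among them Lin28b, Hmga2 and Igf2bp members, so that the loop separates fetal from mature programmes. Hmga2 is a chromatin-binding protein known for its part in the self-renewal of young neural stem cells.

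The let-7 sequences show what Lin28 acts on and why the family is treated as a group. All 9 rat mature 5p sequences of the let-7 and miR-98 family in the RefSeq GRCr8 table share the seed, bases 2 to 8, which is in capitals in 5 examples:
let-7a-5p: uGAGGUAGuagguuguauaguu
let-7b-5p: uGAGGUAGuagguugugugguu
let-7c-5p: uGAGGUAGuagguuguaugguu
let-7d-5p: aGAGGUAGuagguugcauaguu
let-7f-5p: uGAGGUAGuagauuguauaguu
Lin28 is known to contact a GGAG motif between the arms of the hairpin. Among the 10 let-7 and miR-98 hairpins with both arms listed, 8 (80.0%) hold GGAG between the arms, against 16 of 253 other rat hairpins (6.32%). The hairpins below belong to loci whose counts are given further on, with that GGAG in capitals where a hairpin has it. Mirlet7c2 holds none. Only 1 arm is listed for Mirlet7c1, so its motif was not placed.
Mirlet7a1 (chr17:16320133-16320226, + strand): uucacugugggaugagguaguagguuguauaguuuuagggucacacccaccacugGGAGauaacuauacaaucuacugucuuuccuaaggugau
Mirlet7d (chr17:16322260-16322357, + strand): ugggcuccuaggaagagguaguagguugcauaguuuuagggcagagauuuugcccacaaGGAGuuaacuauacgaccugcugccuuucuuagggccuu
Mirlet7c2 (chr7:118683623-118683717, + strand): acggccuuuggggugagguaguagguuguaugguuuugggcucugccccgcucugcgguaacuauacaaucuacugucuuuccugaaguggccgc
Mirlet7c1 (chr11:29688112-29688205, + strand): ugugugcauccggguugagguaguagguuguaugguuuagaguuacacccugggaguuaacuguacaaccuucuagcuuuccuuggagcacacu

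Promoter windows of 300 bases around the gene start were found for 5 of the 6 genes in the RefSeq GRCr8 table. They are shown for Igf2bp3 and Igf2bp2, which fell together after birth. The E-box CACGTG, which reads the same on both strands and is the motif of Myc family proteins, was found 1 time in the Igf2bp3 window, where it is in capitals, and in 0 of the other 4 windows. It occurs in 6.42% of all 33469 promoter windows. The Igf2bp2 window holds 46 CpG dinucleotides, a number reached by 1.43% of all windows, and the Igf2bp3 window holds 23 (19.5%), against a median of 7.
Igf2bp3 promoter (chr4:79525681-79525980, - strand): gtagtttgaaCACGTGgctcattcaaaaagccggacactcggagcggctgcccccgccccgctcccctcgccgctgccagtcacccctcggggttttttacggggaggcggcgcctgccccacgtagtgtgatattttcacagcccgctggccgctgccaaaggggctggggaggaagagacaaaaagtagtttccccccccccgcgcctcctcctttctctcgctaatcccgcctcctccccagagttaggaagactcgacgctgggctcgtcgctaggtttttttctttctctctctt
Igf2bp2 promoter (chr11:92378658-92378957, + strand): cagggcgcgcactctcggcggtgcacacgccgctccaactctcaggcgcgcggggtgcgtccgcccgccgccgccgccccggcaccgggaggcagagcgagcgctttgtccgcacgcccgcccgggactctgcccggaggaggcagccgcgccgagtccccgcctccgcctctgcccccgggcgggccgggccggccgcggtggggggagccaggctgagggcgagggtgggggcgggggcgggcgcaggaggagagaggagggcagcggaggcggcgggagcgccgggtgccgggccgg
A match describes these letters and is not evidence of binding.

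P0 libraries held 4649382 to 9714184 counts, P21 libraries 5117722 to 9408550 and adult libraries 5456940 to 13044595. Each age was deposited as its own count table, so a difference between ages and a difference between tables cannot be told apart. In 3 libraries the Y-linked genes opposed the labelled sex: replicate 6 of P0 female AdLib saline, and in adults replicate 1 of female FR saline and of male FR insulin. They stayed in the group of their label, and the Igf2bp2 difference at P0 is given with and without them. The fibroblast marker Col1a2 was at 0 in the AdLib saline libraries of each age. Levels are in CPM, which scales counts to the library's total, with TMM library factors, and since gene lengths were not used, levels are not compared between genes.

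The 3 Igf2bp genes fell steeply between birth and P21, Lin28b fell less, and no tested member rose. Ages were compared over the 59 AdLib saline libraries, males and females together. The stem is the part of a library name before the dot. AdLib libraries of both injections hold 11 stems at P0, 8 at P21 and 14 in adults. No fit across ages took the stem into account, so the SEs and p-values of age changes treat libraries of a stem as independent. Of the 5 matched members, 4 passed the filter on low counts, and all 4 were called lower at P21 (edgeR quasi-likelihood test, Benjamini-Hochberg adjusted p under 0.05). In this comparison 88.2% of the 14866 genes tested were called, 43.9% higher and 44.3% lower, so a call alone sets no gene apart. The share of all genes whose P0 and P21 ranges do not overlap was not computed. Separate ranges, given below for single genes, therefore set no gene apart either. Igf2bp1 passed that filter through its P0 libraries only, since it failed the filter within P21 and within adults, so its call was bound to follow and the count of 4 supports nothing by itself. The median log2 fold change over all genes tested was -0.01.

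Igf2bp1, which binds and anchors localized mRNAs such as that of beta-actin, had few or no counts after birth. At P0 it lay between 2.93 and 7.31 CPM with a median of 4.76 (19 AdLib saline libraries). At P21 it had 4 counts in all, in 4 of 20 libraries, and the highest reached 0.200 CPM. In adults it had 0 counts in 20 of 20 libraries. Each P21 library lay below the lowest P0 library. The fitted log2 fold change from P0 to P21 was -6.74 (SE 0.261), given as a description because the gene entered the fit through P0 alone. The ratio of pooled levels was 165 with a 95% counting interval of 64.2 to 608, and taking 3 counts over the group as the floor, the P0 level was at least 306-fold higher than in adults. Over all libraries, whatever the condition, Igf2bp1 had 2859 counts at P0, 16 at P21 and 8 in adults, and 65 of 80 P21 libraries and 73 of 79 adult libraries were at 0. The second step, from P21 to adult, was also called (edgeR adjusted p 0.0151), but it rests on 4 counts against 0. It was not called by DESeq2 (adjusted p 0.161), in males alone (edgeR adjusted p 0.279) or in females alone (0.0585).

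Igf2bp3, best known as a fetal and tumour protein that stabilizes growth mRNAs, lay between 12.7 and 24.8 CPM at P0 (median 16.1). It lay between 0.715 and 3.57 CPM at P21 (median 1.50) and between 0.115 and 1.35 CPM in adults (median 0.556). No P21 library reached the lowest P0 library, whereas P21 and adult libraries overlapped, with 13 of 20 adult libraries below the lowest P21 library. The log2 fold change was -3.33 from P0 to P21 (SE 0.128, edgeR adjusted p 2.3e-36) and -1.37 from P21 to adult (SE 0.184, adjusted p 1.5e-09).

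Igf2bp2, the member that persists most widely in adult tissues, lay between 7.03 and 19.0 CPM at P0 (median 10.1). The range was 0.663 to 2.34 CPM at P21 (median 1.30) and 0 to 0.913 CPM in adults (median 0.258). Here too each P21 library was below the lowest P0 library, and 18 of 20 adult libraries were below the lowest P21 library. Its log2 fold change was -2.97 from P0 to P21 (SE 0.140) and -2.02 from P21 to adult (SE 0.213). The second value is given as a description, since Igf2bp2 failed the filter within adults and entered this fit through the earlier ages, where it is higher. The ratio of pooled levels between P0 and adult was 32.8 (95% counting interval 25.4 to 43.1), against 26.6 for Igf2bp3 (22.1 to 32.3). Both genes thus kept a measurable adult level, with counts in 18 and 20 of 20 adult libraries.

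Lin28b, the Lin28 paralogue that sequesters let-7 precursors, followed another course. It lay between 0.927 and 4.00 CPM at P0 (median 2.75), between 0.720 and 3.07 CPM at P21 (median 1.71) and between 0.818 and 3.00 CPM in adults (median 2.27). The ages overlapped widely, and only 3 of 20 P21 libraries lay below the lowest P0 library. Its log2 change from P0 to P21 was -0.64 (SE 0.175, edgeR adjusted p 6.2e-04). From P21 to adult it was 0.24 (SE 0.172, adjusted p 0.224), which was not called, and 13 of 20 adult libraries lay above the P21 median. When all libraries were used, as the mean over the 8 groups of each age, this second step was called as a rise of 0.29 (SE 0.0849, edgeR adjusted p 0.0013). That setting was added after the data were seen. Pooled adult levels were within 1.46-fold of P0 over all libraries (95% counting interval 1.36 to 1.57).

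Hmga2, listed at very low counts, passed the filter in no comparison. It had 43 counts over the 19 AdLib saline libraries at P0, with 17 of them above 0 and a highest value of 0.795 CPM. At P21 it had 2 counts in 20 libraries, and in adults 7. The pooled P0 level was 22.6 times that at P21, with a 95% counting interval of 5.89 to 193 on those 2 counts. Over all libraries it was 6.57 times that at P21 (4.22 to 10.7, 149 counts against 23). In the fit without a filter the log2 fold change from P0 to P21 was -3.50 (SE 0.513, edgeR adjusted p 3.5e-09), and from P21 to adult it was 0.79 (SE 0.574, adjusted p 0.327). Over all libraries the second step had the other direction, with 23 counts at P21 and 20 in adults, a pooled P21 level 1.60 times the adult level (95% counting interval 0.841 to 3.07).

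**Figure D1:**
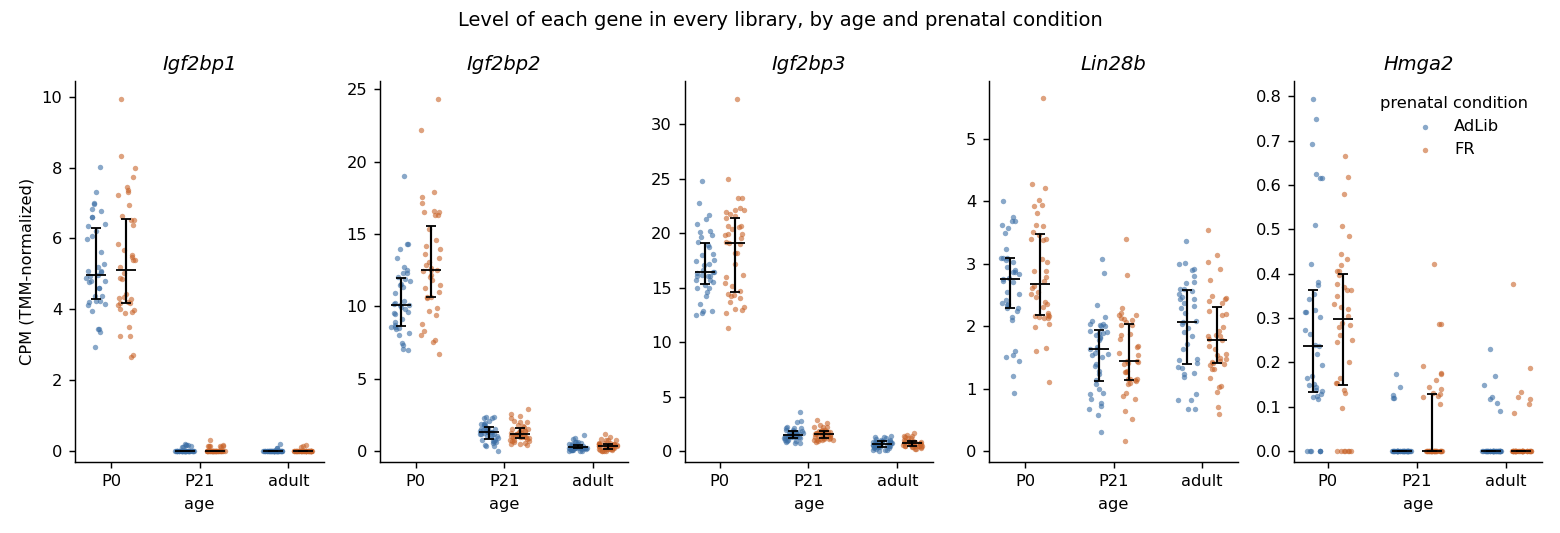
CPM of each matched gene in every library at P0, P21 and in adults, on linear axes of different height, with AdLib libraries in blue and FR libraries in orange; black lines are medians and bars the interquartile range. The Igf2bp genes drop to a small remainder at P21 in both prenatal conditions, while the Lin28b values of the 3 ages overlap.

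The fall did not differ detectably with prenatal condition, injection or sex. Differences of the age change were fitted over all libraries for Igf2bp2, Igf2bp3 and Lin28b. Igf2bp1 could not be fitted there, and its adult AdLib saline libraries were at 0. Of 18 such gene tests, 0 were called by edgeR or DESeq2 and 0 had an unadjusted p under 0.05 in either, where 0.0776% of all gene tests were called. Between 284 (insulin minus saline) and 1869 (FR minus AdLib) of 15671 genes had an unadjusted edgeR p under 0.05, both for P0 to P21. For Igf2bp2 the fall from P0 to P21 differed between FR and AdLib by a log2 of -0.27 (95% interval -0.62 to 0.08). The interval was -0.38 to 0.16 for Igf2bp3 and -0.45 to 0.22 for Lin28b, and values inside these bounds are compatible with the data.

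Between P21 and adult, edgeR called 3 of the 4 tested members, all lower, and DESeq2 called 2, where 61.8% of all genes were called, 30.9% lower. The edgeR count includes Igf2bp1, whose call rests on 4 counts against 0, and Igf2bp2, which failed the filter within adults, so it supports nothing by itself. Of the genes for proteins that share particles with Igf2bp proteins, 6 of 6 tested were lower at P21 than at P0, where 44.3% of all genes were lower, and their median log2 change was -0.86. Ybx1, a cold-shock protein that packages mRNA, ranged from 409 to 576 CPM at P0 and from 46.2 to 67.8 CPM at P21 (log2 -3.13, SE 0.0452). It fell again by adulthood (-0.70, SE 0.0460). Syncrip, an hnRNP found in transport granules, changed by -1.60 (SE 0.0394). From P21 to adult 3 partners fell and 1 rose.

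Of 11 tested transcripts known to be bound by Igf2bp proteins, 4 rose and 5 fell from P0 to P21, with a median of -0.06. These shares are near those of all genes, 43.9% higher and 44.3% lower. Myc, whose coding region is a classic Igf2bp1 site, went from 37.1 to 53.2 CPM at P0 down to 2.40 to 4.72 CPM at P21 (log2 -3.70, SE 0.0816). Mapt, which encodes the microtubule protein tau, changed by -1.72 (SE 0.0343). The cyclin genes Ccnd1 (0.46, SE 0.0711) and Ccng1 (0.43, SE 0.0455) rose. Igf2 itself, the namesake target, was not called (0.47, SE 0.242, edgeR adjusted p 0.0674), and its P0 libraries spanned 7.90 to 103 CPM. Igf2 is also on the list of meningeal and fibroblast markers, whose sum, Igf2 included, spanned 131 to 711 CPM in the same P0 libraries. Their part in the Igf2 values was not tested.

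On the let-7 side, 13 of 17 processing and turnover genes tested were lower at P21 and 2 were higher, with a median of -0.51, where 44.3% of all genes were lower and 43.9% higher. Hnrnpa1, which binds let-7 precursors, changed by -2.51 (SE 0.0536) and Prkra, a Dicer cofactor, by -2.23 (SE 0.0594). The 2 that rose were Ago2 (1.02, SE 0.0593) and Ago3 (0.55, SE 0.0482), both argonautes that carry mature microRNAs. Among known let-7 target genes 12 of 21 fell and 7 rose (median -0.20), beside the same shares of all genes. Mycn changed by -3.36 (SE 0.0717), alongside Myc. Nr2e1, a nuclear receptor of neural stem cells (1.17, SE 0.0884), and Irs2, an insulin receptor substrate (0.78, SE 0.0732), rose.

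Reads at the let-7 loci themselves were few. The 10 listed let-7 and miR-98 loci were added after the symbols were seen, and 6 passed the filter. Within single ages 7 loci passed it at P0 and 3 at P21, so some of the 6 entered through P0, where they are higher, and their count supports nothing by itself. From P0 to P21, 5 of these 6 fell and 0 rose, where 44.3% of all genes were lower. Mirlet7c1 lay between 2.94 and 8.67 CPM at P0 and between 0 and 1.78 CPM at P21, without overlap (log2 -2.56, SE 0.183). Mirlet7b went from a median of 2.55 to 0.752 CPM (-1.55, SE 0.179), Mirlet7c2 from 1.25 to 0.463 CPM (-1.57, SE 0.280) and Mirlet7d from 1.87 to 1.14 CPM (-0.83, SE 0.159). Mirlet7a1 was at the edge of a call (-0.38, SE 0.187, edgeR adjusted p 0.0498), and Mirlet7f-1os was not called (-0.06, SE 0.189). From P21 to adult 1 locus was called, Mirlet7f-1os, which rose (0.39, SE 0.174, adjusted p 0.0478), where 61.8% of all genes were called and 30.9% were higher. Whether these reads come from primary transcripts, host transcripts or mature microRNAs was not tested, and mature let-7 was not measured.

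Of the insulin and IGF genes tested, 8 of 13 fell from P0 to P21 and 3 rose (median -0.28), where 44.3% of all genes were lower and 43.9% higher. Within P21 alone 12 of them passed the filter, so 1 entered the count through another age. Igfbpl1, an IGF-binding protein relative of young neurons, ranged from 42.3 to 111 CPM at P0 and from 0.127 to 1.14 CPM at P21 (log2 -7.09, SE 0.172). Igfbp2 changed by -1.71 (SE 0.102). The receptor genes Igf1r (-0.85, SE 0.0746) and Insr (-0.20, SE 0.0400) fell by less. Igfbp6 rose (1.21, SE 0.283), though not in males alone (0.82, SE 0.408, edgeR adjusted p 0.0621).

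Of 13 neural progenitor markers tested 11 fell and 2 rose, where 44.3% of all genes were lower and 43.9% higher. Within P21 alone 11 of them passed the filter, so some entered through P0, where they are higher. Their summed level went from 516 to 876 CPM at P0 to 205 to 286 CPM at P21. Eomes, of intermediate progenitors (-6.55, SE 0.559), and the proliferation gene Top2a (-3.76, SE 0.103) fell most, while Hes1 (1.58, SE 0.0958) and Hes5 (0.41, SE 0.0917) rose. All 5 immature neuron markers tested fell, among them Dcx (-4.91, SE 0.0395) and Sox11 (-4.98, SE 0.0613), and their sum went from 7997 to 10082 CPM at P0 to 1286 to 1575 CPM. Markers of astrocytes (6 of 7), oligodendrocytes (8 of 9), microglia (6 of 6), interneurons (5 of 6), endothelium and pericytes (3 of 4) and meninges and fibroblasts (3 of 7) were called higher at P21. Of the cortical projection neuron markers 6 of 8 were lower and 1 was higher, 1 interneuron marker was lower, and of 4 red blood cell markers 2 were lower and 1 higher. In bulk tissue fewer cells of a type and less RNA per cell cannot be told apart, and the part of cell makeup in the fall of the Igf2bp genes was not tested.

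**Figure D2:**
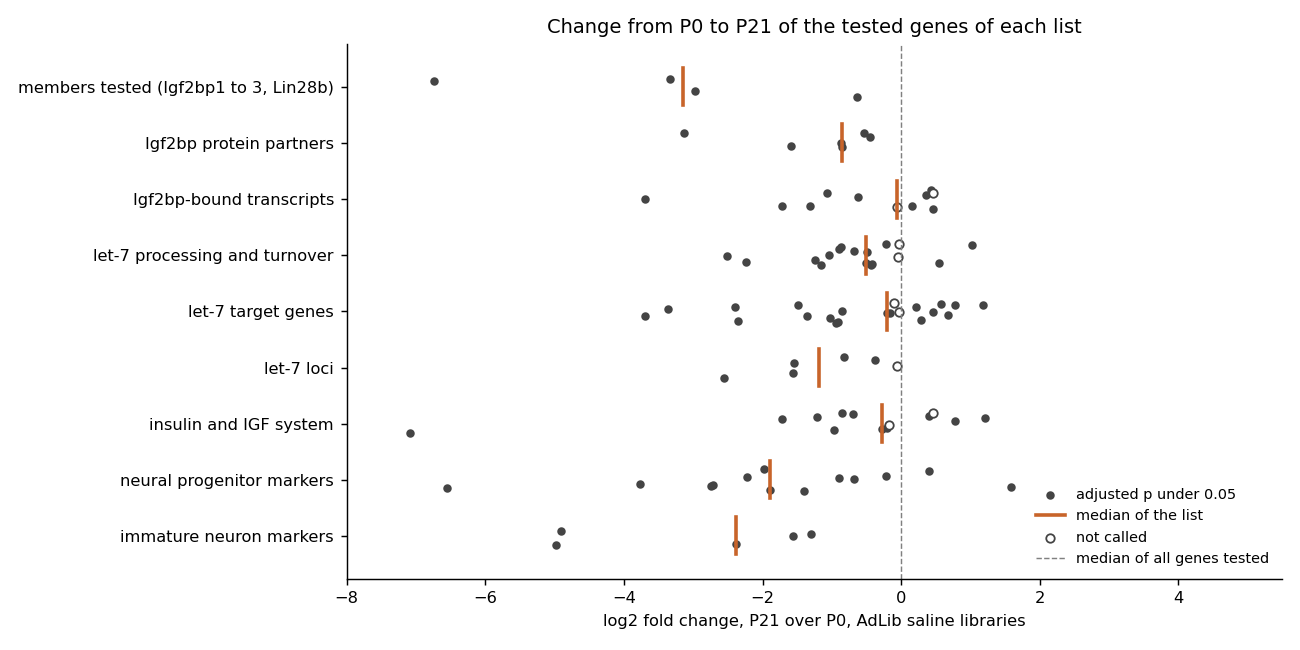
Log2 fold change from P0 to P21 in AdLib saline libraries (horizontal axis) of each tested gene of 9 lists (rows); filled points were called, open points were not, orange bars are list medians, given as descriptions, and the dashed line is the median of all genes. The Igf2bp1 point at -6.74 stands far left of the other members, beside Igfbpl1 and Eomes at similar values, while target lists spread on both sides of 0.

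By profile over the 24 group means of log2(CPM + 0.5), each centred on its own mean, the genes most like Igf2bp1 were Ppp1r14b (root mean square difference 0.0988 on the log2 scale), Efna4 and Kif26b. For Igf2bp2 they were Cdk1 (0.168), Ntsr1 and Ckap2, for Igf2bp3 Ttc28 (0.138), Dynlt1 and Ybx1, and for Lin28b an identifier without a symbol (ENSRNOG00000015322, 0.122), Kansl1 and Bloc1s2. With a pseudocount of 0.1 CPM, an alternative added after the data were seen, only Ntsr1 and Kansl1 remained among these. The nearest genes to Igf2bp1 were then Draxin, Mex3a and Sox11. Ppp1r14b went from a mean of 177 CPM at P0 to 16.5 CPM at P21, whereas the pooled Igf2bp1 level at P0 was 181 times that at P21. The likeness of Ppp1r14b to Igf2bp1 thus depends on the 0.5 CPM added.

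Within P0 the Igf2bp genes also varied together. The unit here was the stem of the library name, the part before the dot, whose meaning the labels do not give. The 21 stems at P0 each hold 2 to 6 libraries. After subtraction of group means, stem averages of Igf2bp1 and Igf2bp3 had a Pearson r of 0.76 (permutation p 6e-05, adjusted 3.6e-04 over 6 pairs) and a Spearman rho of 0.70 (permutation p 5.3e-04, adjusted 0.00255). Igf2bp2 and Igf2bp3 had an r of 0.71 (permutation p 4e-04, adjusted 0.0012) and a rho of 0.69 (permutation p 8.5e-04, adjusted 0.00255). Without the 2 stems farthest from the median these r values were 0.62 and 0.63. For Igf2bp1 and Igf2bp2 r was 0.51 (permutation p 0.0166, adjusted 0.0332), rho was 0.52 (permutation p 0.0151, adjusted 0.0302) and r was 0.35 without 2 stems. For the 3 pairs with Lin28b, r was between 0.39 and 0.49 and rho between 0.30 and 0.35, with an adjusted permutation p between 0.0374 and 0.0843 for r and between 0.175 and 0.185 for rho. Without 2 stems, r of these pairs was between 0.24 and 0.30. All these values share libraries and depth. Other gene pairs were not examined, so whether such r values are particular to these genes was not tested.

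The effect of prenatal growth restriction was tested for the members in 9 comparisons, each sex in saline and all libraries of an age, at 3 ages. Of 27 gene tests, 1 was called by edgeR and 1 by DESeq2, where 0.267% of all gene tests were called. The call was Igf2bp2 at P0 over all libraries, a comparison in which 283 of 14318 genes (1.98%) were called. Igf2bp2 lay between 7.00 and 19.0 CPM in the 39 AdLib libraries (median 10.1) and between 6.72 and 24.4 CPM in the 40 FR libraries (median 12.5). The ranges overlapped, and the AdLib median was exceeded in 31 of 40 FR libraries. Means were 13.0 ± 3.82 CPM in FR and 10.5 ± 2.45 CPM in AdLib (SD). FR exceeded AdLib by a log2 of 0.30 (SE 0.0845, 95% interval 0.14 to 0.47, edgeR adjusted p 0.0382).

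The Igf2bp2 call depended on how libraries were grouped. No stem occurs in both prenatal conditions, so stem and condition cannot be told apart within stems, and libraries of a stem were alike at P0 (consensus correlation 0.319). With the stem as a random block the log2 fold change was 0.27 (SE 0.111, limma adjusted p 0.634), and 0 genes of 14318 were called. Over stem means, an analysis added after the data were seen, FR stems ranged from 8.82 to 17.8 CPM (median 11.5, 10 stems) and AdLib stems from 8.36 to 13.7 CPM (median 9.76, 11 stems). 9 of 10 FR stems lay above the AdLib median, with a permutation p of 0.0688 (two-sided). Without P0 female AdLib saline replicate 6, whose Y-linked genes opposed its label, the difference was 0.30 (edgeR adjusted p 0.0511). Without a filter on low counts the adjusted p was 0.0658.

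**Figure D3:**
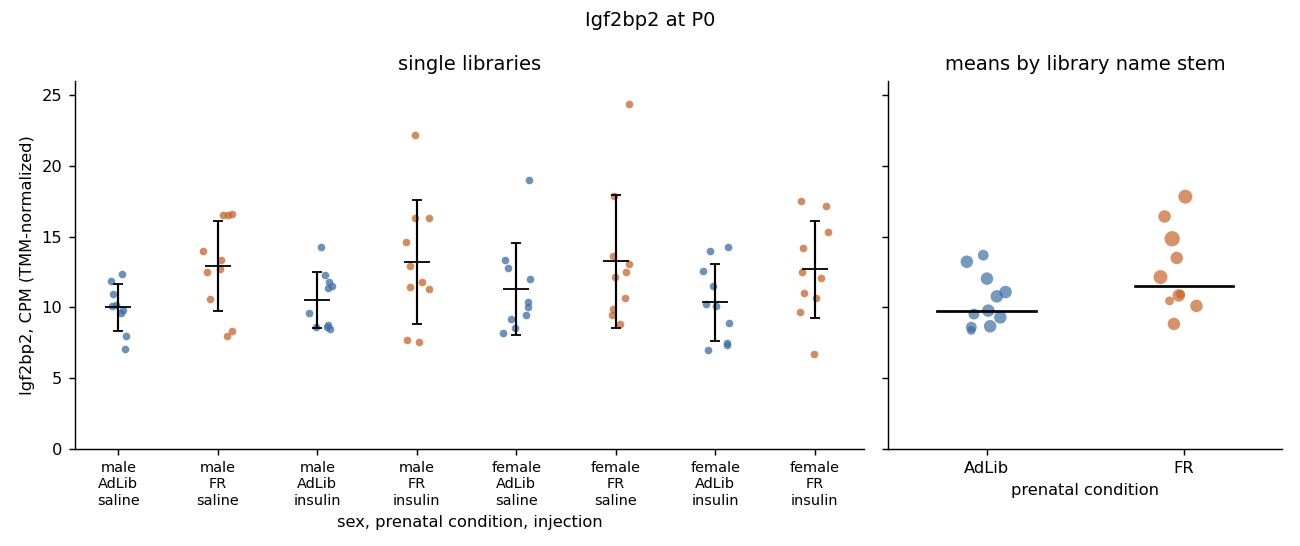
Igf2bp2 CPM at P0 (vertical axis from 0). Left, every library of the 8 groups with mean and SD; right, mean of each library name stem with point area in proportion to its 2 to 6 libraries and the median as a line. FR libraries in orange tend to lie higher than AdLib libraries in blue, and the ranges overlap in both panels.

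By sex in saline, Igf2bp2 was at 12.9 ± 3.20 CPM in P0 FR males (n = 10) and 9.98 ± 1.69 CPM in AdLib males (n = 9). FR exceeded AdLib by a log2 of 0.37 (SE 0.172, edgeR adjusted p 0.627). In females it was 13.2 ± 4.70 against 11.3 ± 3.24 CPM (n = 10 each), which is higher by 0.21 on the log2 scale (SE 0.168, edgeR adjusted p 0.999). The FR effect did not differ detectably between the sexes (log2 difference 0.10, 95% interval -0.23 to 0.43). Igf2bp2 was not called for FR at P21 (0.04, 95% interval -0.25 to 0.33), and it did not pass the filter in adults.

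The other members were not called for FR. At P0 over all libraries the log2 fold change was 0.04 for Igf2bp1 (95% interval -0.13 to 0.22), 0.11 for Igf2bp3 (-0.02 to 0.24) and 0.11 for Lin28b (-0.09 to 0.30). At P21 the intervals were -0.20 to 0.20 for Igf2bp3 and -0.25 to 0.23 for Lin28b, and in adults -0.12 to 0.56 and -0.38 to 0.11. Hmga2 had 18 counts in 40 FR libraries and 5 in 40 AdLib libraries at P21. In the fit without a filter the FR effect was 1.19 on the log2 scale (SE 0.392, edgeR adjusted p 0.599).

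The related list genes called for FR at P0, a comparison that called 1.98% of all genes, are given by name. Msi1, an RNA-binding protein of neural stem cells that acts with Lin28, was higher (0.24, SE 0.0583, edgeR adjusted p 0.0247), and so was the let-7 target Dna2 (0.11, SE 0.0311, adjusted p 0.0395). Gap43, a growth cone gene with an Igf2bp-bound transcript, was lower (-0.18, SE 0.0458, adjusted p 0.0269). Of 6 immature neuron markers tested 2 were lower, Tubb3 (-0.19, SE 0.0378) and Stmn2 (-0.13, SE 0.0333). The summed level of these markers ranged from 6876 to 9752 CPM in FR (median 8631) and from 7997 to 10482 CPM in AdLib (median 9352), and none of the 13 progenitor markers tested was called. The red blood cell markers summed to 195 to 905 CPM in FR (median 406) and 224 to 1147 CPM in AdLib (median 521). Of these 4 markers 0 were called by edgeR and 3 had an unadjusted p under 0.05, with a median log2 difference of -0.28. Over all genes, 2403 of 14318 had such an unadjusted edgeR p. The part of these markers in the Igf2bp2 difference was not tested. With the stem as a block 0 genes were called, these included. In adults 1 related gene was called, the partner Hnrnpu (0.08, SE 0.0213, adjusted p 0.0483), and at P21 none was. Over all genes 0.356% were called in adults and 0.0417% at P21. For the list genes named here, Hnrnpu included, no value is given without the libraries whose Y-linked genes opposed their label. Without them 212 genes were called for FR at P0, against 283 with them.

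**Figure D4:**
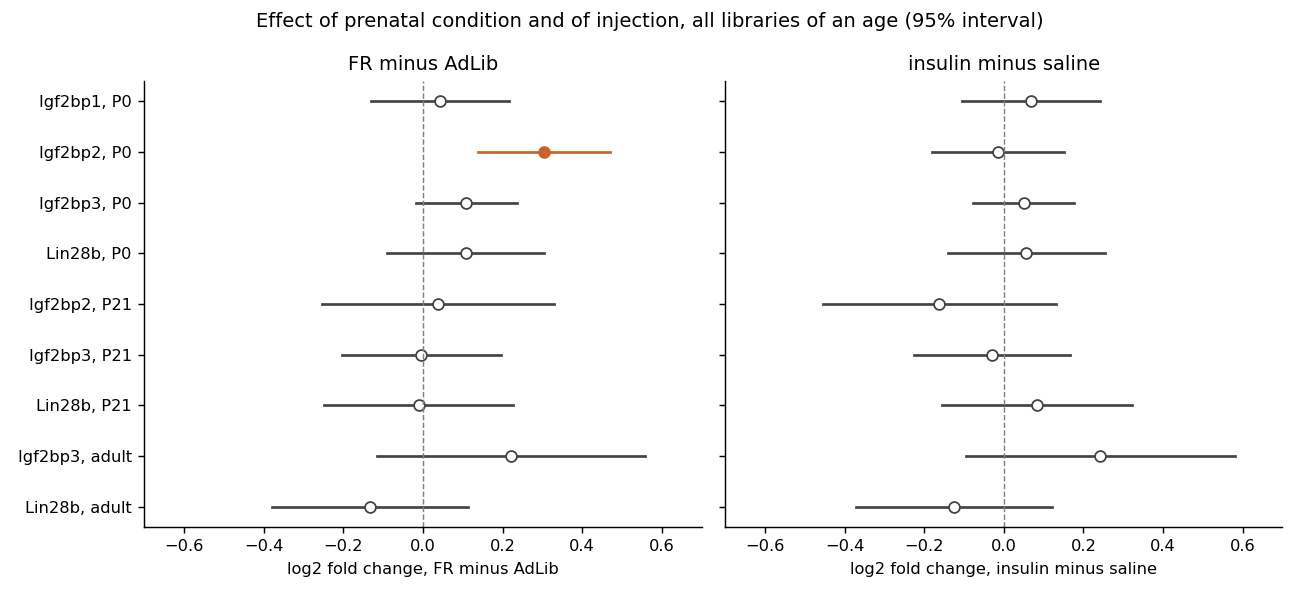
Log2 fold change with its 95% interval for FR minus AdLib (left) and insulin minus saline (right), over all libraries of an age, for each member that passed the filter; the filled orange point was called and open points were not. The interval of Igf2bp2 at P0 for FR lies above 0, and the other 17 intervals include 0.

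Insulin 30 minutes before collection moved no member past the threshold. Over 15 comparisons, 45 gene tests gave 0 calls with edgeR (3 at an unadjusted p under 0.05) and 0 with DESeq2 (2), where edgeR called 0.00365% of all gene tests. Over all genes, from 124 of 14318 (all P0 libraries) to 980 of 15168 (all adult libraries) had an unadjusted edgeR p under 0.05. At P0 over all libraries the log2 fold change was 0.07 for Igf2bp1 (95% interval -0.11 to 0.24), -0.01 for Igf2bp2 (-0.18 to 0.15), 0.05 for Igf2bp3 (-0.08 to 0.18) and 0.06 for Lin28b (-0.14 to 0.25). At P21 the intervals were -0.45 to 0.13 for Igf2bp2, -0.23 to 0.17 for Igf2bp3 and -0.15 to 0.32 for Lin28b. In adults they were -0.09 to 0.58 for Igf2bp3 and -0.37 to 0.12 for Lin28b. Over all libraries of an age, 0.0% of all genes were called for insulin at each of the 3 ages, the related lists included. Insulin and saline libraries share name stems, and these fits did not take the stem into account. The intervals therefore include differences between stems, and no insulin value with the stem as a block is given here.

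Among the injection and interaction tests the lowest unadjusted p belonged to Lin28b in P21 males. In AdLib males it was at 1.70 ± 0.657 CPM after saline and 1.17 ± 0.516 CPM after insulin. In FR males it was at 1.43 ± 0.616 CPM after saline and 2.01 ± 0.690 CPM after insulin (n = 10 each, SD). All 4 groups overlapped, with saline from 0.720 to 3.07 CPM and insulin from 0.302 to 1.92 CPM in AdLib, and saline from 0.519 to 2.21 CPM and insulin from 1.15 to 3.39 CPM in FR. The insulin effect was a log2 of -0.53 in AdLib (SE 0.248, unadjusted edgeR p 0.0339) and 0.50 in FR (SE 0.234, unadjusted p 0.0349). The interaction was 1.04 (SE 0.341, unadjusted p 0.0032, adjusted p 0.915), and in females it was 0.15 (SE 0.341, unadjusted edgeR p 0.672). It is a difference that failed the correction over all genes, as did all 27 gene tests of the interaction. Of these, 0 were called by edgeR (5 at an unadjusted p under 0.05) or DESeq2 (3), and 0.0% of all genes were called. Over all genes, from 146 of 14318 (P0 females) to 731 of 14400 (P21 males) had an unadjusted edgeR p under 0.05 for the interaction.

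**Figure D5:**
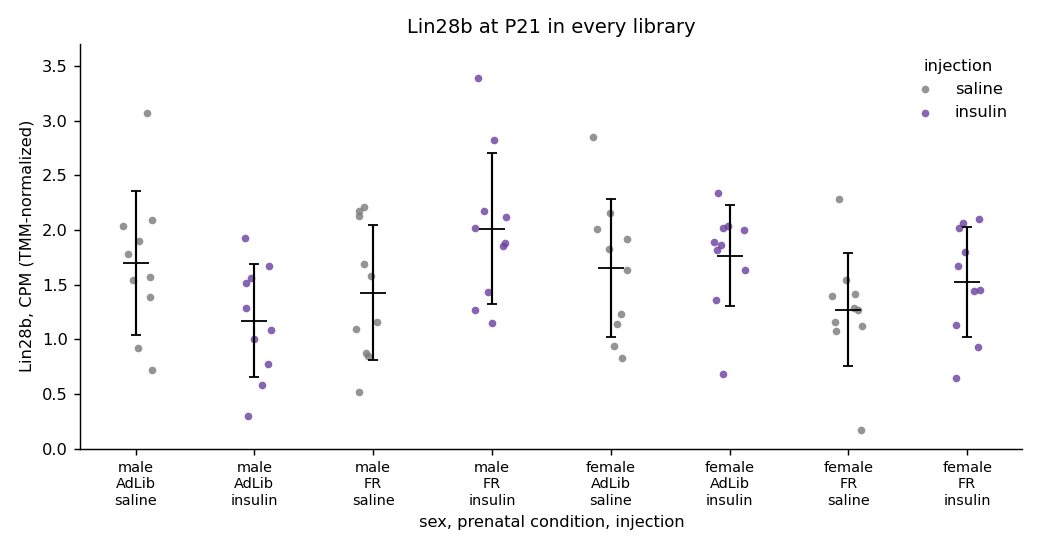
Lin28b CPM at P21 in every library of the 8 groups (vertical axis from 0), saline in grey and insulin in purple, with mean and SD. Male means move in opposite directions with insulin in AdLib and FR, and the points of all groups overlap.

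The comparison of FR insulin with AdLib saline, which shares its controls with the comparisons above, gave 0 calls in 18 gene tests with edgeR (1 at an unadjusted p under 0.05) and 0 with DESeq2 (1), where 0.00684% of all gene tests were called. Over all genes, from 511 of 14318 (P0 females) to 1305 of 15168 (adult females) had an unadjusted edgeR p under 0.05. For Igf2bp2 in P0 males the log2 difference was 0.41 (SE 0.172, edgeR adjusted p 0.861). Sex differences in the FR or insulin effect gave 0 calls in 18 gene tests with edgeR (1 at an unadjusted p under 0.05) and 0 with DESeq2 (1), and 0.0% of all genes were called. Here from 126 of 14318 genes (insulin effect, P0) to 1060 of 15168 (FR effect, adults) had an unadjusted edgeR p under 0.05. In the authors' deposited tables, 90 values for the members in 18 comparisons include 3 with a p-value under 0.05 and 0 with a false discovery rate under 0.05. Of these, 30 values, 1 with a p-value under 0.05, come from tables that, for the genes fitted here, lie within 0.049 on the log2 scale of the effect of insulin within FR, so they do not bear on FR insulin against AdLib saline. There the FR effect on Igf2bp2 in P0 males has a log2 fold change of 0.36 and a p-value of 0.0139, in the authors' deposited table.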

How the data were processed

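Per the submitters' processing notes, reads were aligned with STAR to Rnor_6.0. Annotation, counting program and strand setting are not given in the sources used here. The authors deposited 1 table of whole-number gene counts per age and 18 tables of their own comparisons with log2 fold changes, log2 CPM and p-values. All libraries were used. From the deposited counts, CPM with TMM factors were computed, low genes were removed with filterByExpr, and edgeR 4.0.16 quasi-likelihood fits (R 4.3.3) were run over all genes of an age, or of the 59 AdLib saline libraries for the age steps, with Benjamini-Hochberg adjustment at 0.05. DESeq2 1.42.0 was an alternative, as was limma 3.58.1 with the library name stem as a random block, the latter within single ages only. Further alternatives were other size factors, no filter, each sex alone and libraries left out. Counting intervals are 95% and cover counting error only. The fits were tested on simulated data. The 6 genes and all lists were chosen with earlier results of these data known. From each list, at most 2 called genes in either direction were named, by size of the change from P0 to P21 at a mean of at least 1 CPM, with any list gene called for growth restriction. Igf2, Igf1r, Insr and the let-7 loci were named beside them after their values were seen. Same-numbered insulin and saline replicates often shared a name stem, and the main fits did not pair them. In P0 female AdLib all 10 pairs shared a stem, and 10 of 10 deviated together at a correlation over 0.1. In P0 male FR 10 pairs shared a stem and 9 of 10 were over 0.1. In P21 female FR 10 pairs shared a stem and 2 of 10 were over 0.1. Replicates are separate biological samples per the series description.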

Additional observations from a re-analysis of the deposited data

Results flagged for a closer look

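In 7 of the 64 gene-by-group sets tested, 1 library stood far from the others of its group by Dixon's test. Its chance rate of about 1 in 20 holds for normally distributed values, which low CPM values need not be. All 7 libraries stood above their group, and no excess over chance is read from the count. At P0, Igf2bp1 was at 6.36 CPM in male AdLib saline replicate 1, with the next library at 5.06 CPM. Igf2bp2 was at 19.0 CPM in female AdLib saline replicate 5 (next 13.3 CPM), which is the highest AdLib value in the comparison with FR. Igf2bp3 was at 32.4 CPM in female FR insulin replicate 10 (next 23.3 CPM), and Lin28b was at 5.65 CPM in male FR insulin replicate 10 (next 3.92 CPM). At P21, Igf2bp2 was at 2.34 CPM in male AdLib saline replicate 2 (next 1.46 CPM) and Igf2bp3 at 2.82 CPM in male FR insulin replicate 1 (next 1.86 CPM). In adults, Lin28b was at 3.03 CPM in female FR insulin replicate 9 (next 1.93 CPM).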

How the results depend on the processing

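The number of members called for growth restriction went from 1 to 0 without a filter on low counts, with the name stem as a random block, and without the libraries whose Y-linked genes oppose their label. The cause was not tested. Over the alternatives and the stem permutation, the Igf2bp2 log2 fold change at P0 stayed between 0.24 and 0.31. The number of all genes called in that comparison was 283, against 440 with DESeq2, 96 without a filter, 520 with the replicate block, 212 without the opposing libraries and 0 with the stem block. With the replicate number as a block, 4 members were called from P0 to P21, 3 from P21 to adult, 1 for growth restriction and 0 in the other comparisons, the same numbers as without it. Single libraries were not left out in turn, since groups held 9 or 10. Depth limits Igf2bp1 and Hmga2 after P0, which were at 0 in most libraries.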
